A study of Tursiops truncatus with 8 samples.

Results

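Skin slices of a bottlenose dolphin (Tursiops truncatus) that had been kept in medium with perfluorooctanoic acid (PFOA) dissolved in methanol were compared with a slice kept in medium with methanol alone. The 3 arrays, chosen by their titles from the 8 of the study, were a methanol vehicle array and 2 PFOA arrays, here called PFOA titled 1 and PFOA titled 0.1. All 3 lay on 1 slide together with an array of a slice in control medium, which is used below as a further unexposed reference. The other 4 arrays of the study, on another slide, held bisphenol A (BPA) cultures and their ethanol vehicle. They entered the estimate of spread, the mean level and the position reference over all arrays, the rank of methanol among the 8, and the levels given for single features. Slices about 2 mm thick, with both epidermis and dermis, were cut from a stranded female animal and incubated for 24 h at 24 to 28 °C.

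The PFOA doses have no order here. The sample titles give 1 and 0.1 mg/ml, the sample descriptions give the opposite numbers for the same arrays, and the treatment protocol gives 0.1 and 1 µg/ml. The numbers 1 and 0.1 therefore only name the arrays. Each condition had 1 array, and nothing in the labels says that the slices came from separate animals, so the p-values below reflect how these slices and arrays varied, and that variation may be technical. The spread came from arrays of the same compound with different titled doses (2 PFOA and 3 BPA), so it includes any difference between doses.

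PFOA is a fully fluorinated fatty acid analogue that was used as a surfactant in making fluoropolymers. It resists breakdown and builds up in marine mammals. In rodent liver it is known to activate the nuclear receptor PPARA, which turns on genes of fatty acid uptake and oxidation. Dolphin skin has a thick, rapidly renewing, lipid-rich epidermis over a collagenous dermis, and cultured slices keep both layers for a short time.

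The array allowed little of this biology to be read by gene name. Of its 24418 probes, 21559 stood for contigs of a transcript assembly, 2702 for single reads, 137 for numbered database sequences and 20 for 13 named genes. None of 40 genes of fatty acid oxidation and other PPAR targets was named, and none of 20 genes of xenobiotic metabolism or of 20 genes of the oxidative stress response. The 13 named genes were mostly genes of lung epithelium and of the response to low oxygen. The skin identity of the slices could not be checked. Of a list of 22 keratinocyte genes only MUC1 was named, a mucin of many epithelia that does not mark keratinocytes. Of 9 fibroblast markers none was named. The endothelial cadherin CDH5 had no spot well above background on any array. Most results below are therefore about features without a gene name, called by their contig.

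Between PFOA and methanol no feature passed limma's test at an adjusted p of 0.05 (0 of 16599 features tested, 0% called), and 718 features (4.33%) had an unadjusted p below 0.05. The smallest adjusted p was 0.095. The features tested were those with every spot well above background on all 3 arrays. Counted without a test, 112 features (0.675%) were at least 2-fold apart between PFOA titled 1 and methanol, 72 higher (0.434%) and 40 lower (0.241%). For PFOA titled 0.1 the count was 877 (5.28%), with 572 higher (3.45%) and 305 lower (1.84%). In the same direction on both PFOA arrays, 48 features (0.289%) were at least 2-fold from methanol, 38 higher (0.229%) and 10 lower (0.0602%). Both PFOA comparisons use the same methanol array, and these counts have no replicate check.

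**Figure D1:**
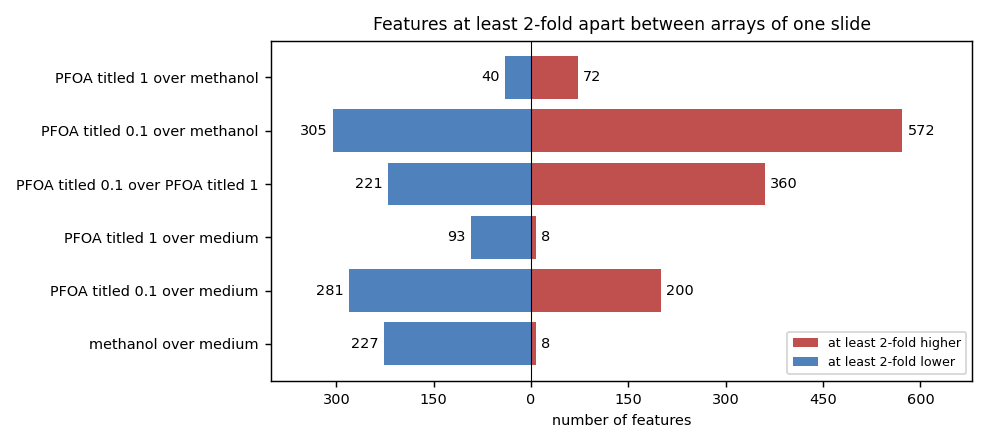
Number of features at least 2-fold apart (x axis, higher to the right and lower to the left) for each pair of arrays on the slide (y axis). The bars for PFOA titled 0.1 against methanol (572 higher, 305 lower) are far longer than those for PFOA titled 1 (72 higher, 40 lower).

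Technical spread differed between the arrays and belongs beside these counts. The quality summary in the file headers read "evaluate" for both PFOA arrays and "in range" for methanol and medium. On the other slide it read "in range" only for the BPA array titled 0.1. The headers' median percent coefficient of variation was 7.15 on PFOA titled 1 and 21.4 on PFOA titled 0.1. It was 3.86 on methanol and 5.93 on medium. The duplicate spots of a probe differed by a standard deviation (SD, log2) of 0.38 on PFOA titled 0.1, against 0.14 on methanol, 0.17 on PFOA titled 1 and 0.18 on medium. The signal at the 75th percentile was 400 on PFOA titled 0.1 and between 620 and 696 on the other 3 arrays of the slide. PFOA titled 0.1 also varied with the position on the array. In 27 bands of 20 spot rows, the median deviation of its spots from the median of the other 7 arrays ran from -0.25 to 0.38 (log2), against -0.09 to 0.08 on PFOA titled 1. No spot was saturated, and 69.6% to 75.1% of the probes of these 4 arrays were well above background. Of the features called with 2 or more spots, 19 of 56 on PFOA titled 1 and 198 of 576 on PFOA titled 0.1 had every PFOA spot at least 2-fold from every methanol spot. The part of this spread in the larger count of PFOA titled 0.1 was not tested.

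**Figure D2:**
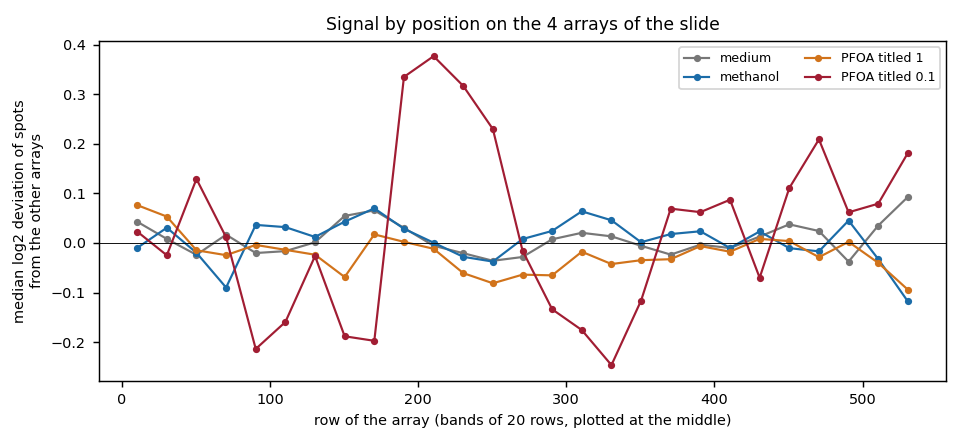
Median deviation of the spots in each band of rows from the median of the other arrays (y axis, log2) along the array (x axis, row) for the 4 arrays of the slide. The line of PFOA titled 0.1 spans -0.25 to 0.38, and the other 3 stay between -0.12 and 0.09.

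The difference from methanol also depended on brightness. The features were divided by their mean level over the 8 arrays into 4 bins of like size. In the dimmest bin, 1.64% were at least 2-fold apart on PFOA titled 1 and 9.01% on PFOA titled 0.1. In the brightest bin the shares were 0.0723% and 3.57%. Features named for single sequence reads were called more often than contigs, at 2.11% against 0.515% on PFOA titled 1 and 11.02% against 4.62% on PFOA titled 0.1. Their median methanol signal was 249, against 353 for contigs. Among the features at least 2-fold from methanol on both PFOA arrays, single-read features had 1 spot each and most contigs had 2. The part of brightness and spot number in this contrast was not tested. The SD of the log2 difference from methanol over all features was 0.31 for PFOA titled 1 and 0.50 for PFOA titled 0.1.

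**Figure D3:**
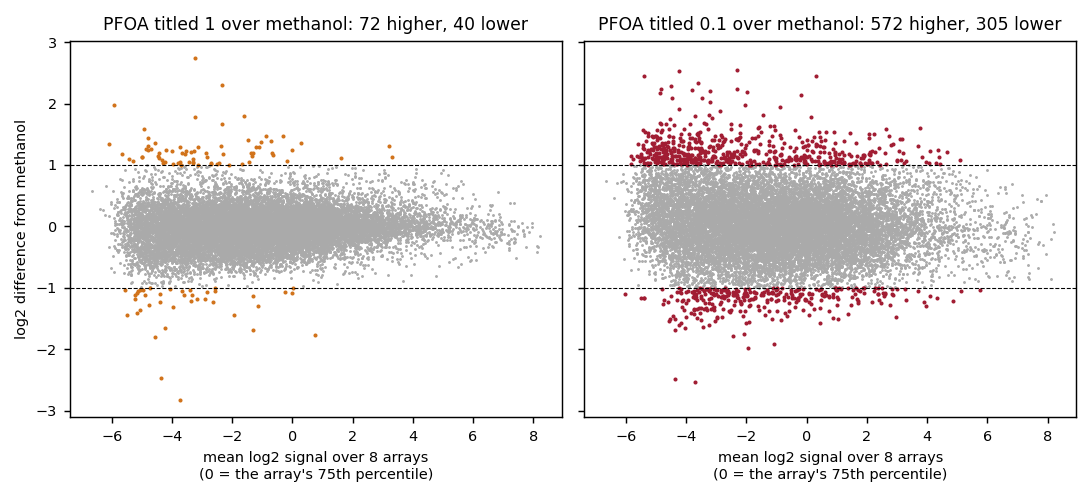
Log2 difference of each PFOA array from methanol (y axis) against its mean log2 level over the 8 arrays (x axis, 0 at the 75th percentile), with 1 point per feature and those past 2-fold in colour. The points of PFOA titled 0.1 scatter more widely (SD 0.50) than those of PFOA titled 1 (SD 0.31), and the scatter is widest among dim features.

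Of the 20 probes named for genes, 8 probes of 6 genes were measured on all 3 arrays. Their levels are given as a percentage of the signal at the array's 75th percentile. None passed limma's test, with an adjusted p of 0.995 for each of the 8. Relative to methanol, 3 of the 8 read lower on both PFOA arrays, 2 read higher on both and 3 split. The median log2 difference was -0.17 for PFOA titled 1 and 0.58 for PFOA titled 0.1, against -0.01 and 0.02 over all features. These probes were dim, with a median methanol signal of 41.7, near the 42.9 of the dimmest bin. In that bin the median differences were -0.05 and 0.13, with an SD of 0.38 and 0.57. In whole slices, fewer cells of a type and less RNA per cell cannot be told apart.

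The hypoxia-inducible factors are transcription factor subunits that are stabilised when oxygen is low. Both HIF1A probes read lower on PFOA titled 1 than on methanol, by -0.53 and -0.30 (log2). For the probe HIF1a-1 the spots read 27.0% and 26.5% on methanol, 18.4% and 18.7% on PFOA titled 1, 17.5% and 26.8% on PFOA titled 0.1, and 23.4% and 22.3% on medium. PFOA titled 1 thus lay below methanol and medium at every spot, while the spots of PFOA titled 0.1 spread over the whole range. Ethanol, on the other slide, read 18.0% for this probe, below the 18.5% of PFOA titled 1. For the probe HIF1a-2 the spots read 19.3% and 19.7% on methanol, 15.4% and 16.1% on PFOA titled 1, 27.3% and 27.1% on PFOA titled 0.1, and 16.1% and 16.2% on medium. Here PFOA titled 0.1 was above the other 3 arrays and PFOA titled 1 was at the level of medium, so the 2 HIF1A probes differed in the sign of the PFOA titled 0.1 difference (-0.31 and 0.48). EPAS1, named HIF2a on the array, read 5.07% on methanol, 3.32% on PFOA titled 1, 4.75% on PFOA titled 0.1 and 5.74% on medium. Its spots on PFOA titled 0.1 (4.40% and 5.11%) overlapped those on methanol (4.73% and 5.44%).

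The mucin MUC1 coats the surface of many epithelia. Its probe MUC1-2 read 6.91% on methanol, 7.41% on PFOA titled 1, 13.9% on PFOA titled 0.1 and 8.64% on medium, a log2 difference from methanol of 0.10 and 1.01. The other probe, MUC1-1, was dimmer and was well above background in only part of its spots on PFOA titled 1, so it was not tested. It read 1.65% on methanol, 1.73% on PFOA titled 1, 3.18% on PFOA titled 0.1 and 2.65% on medium. On PFOA titled 0.1 it differed from methanol by 0.95 (log2), near the 1.01 of MUC1-2. The MUC1-1 spots on PFOA titled 0.1 (3.12% and 3.24%) overlapped those on medium (2.25% and 3.13%). On the other slide, MUC1-1 read 3.48% with ethanol and 3.09%, 2.67% and 4.02% on the BPA arrays titled 0.1, 1 and 100. MUC1-2 read 6.12% to 8.41% on that slide, below PFOA titled 0.1. The water channel AQP5 had 2 probes. AQP5-1 read 7.88% on methanol and 3.65% on PFOA titled 1 (log2 difference -1.11), but its methanol spots read 3.31% and 18.7%, a range that takes in all 3 other arrays. AQP5-2 read 2.39% on methanol, 2.33% on PFOA titled 1, 3.83% on PFOA titled 0.1 and 3.96% on medium.

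The other 2 measured genes are best known from the alveolar type II cell of the lung. ABCA3, a lipid transporter of the surfactant granule, read 3.33% on methanol, 3.404% on PFOA titled 1, 8.71% on PFOA titled 0.1 and 5.57% on medium with the probe AbcA3-1. SFTPC, a surfactant protein, read 2.53%, 2.504%, 4.63% and 4.90% on the same arrays. For both, PFOA titled 1 read as methanol did, and PFOA titled 0.1 read higher than methanol by 1.39 and 0.87 (log2). For SFTPC the medium array was as high as PFOA titled 0.1. For AbcA3-1 the spots on PFOA titled 0.1 (7.33% and 10.4%) overlapped those on medium (4.11% and 7.54%). On the other slide, the BPA arrays titled 0.1 and 1 read 7.59% and 8.12% for it, within the range of those PFOA spots. Ethanol and the BPA array titled 100 read 5.97% and 4.62%. Of the other lung genes, PDPN, SFTPA1 and SFTPB had no spot well above background on any array, and 2 FOXF1 probes, 2 CC10 (SCGB1A1) probes, 1 NKX2-1 probe and the other 2 AbcA3 probes were above background on only some arrays or spots.

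**Figure D4:**
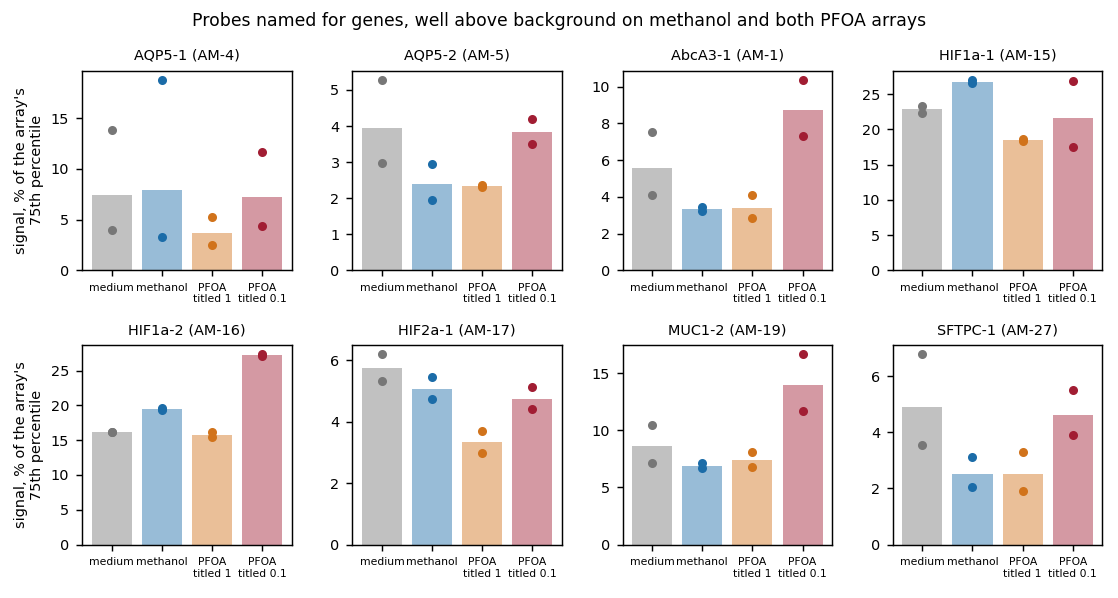
Level of the 8 measured gene probes (y axis, percent of the array's 75th percentile signal) on medium, methanol and both PFOA arrays, with bars for the geometric mean of the spots and points for single spots. MUC1-2 and AbcA3-1 stand highest on PFOA titled 0.1 (13.9% and 8.71%), and the methanol spots of AQP5-1 lie far apart (3.31% and 18.7%).

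The 38 features that were at least 2-fold higher than methanol on both PFOA arrays were mostly features on which methanol was low. All 38 were measured on medium, and methanol read below medium in 38 of 38, by at least 2-fold in 16. Of the 38, 32 were within 2-fold of medium on both PFOA arrays and none was at least 2-fold above it on both. Their median log2 difference from methanol was 1.24 for PFOA titled 1 and 1.26 for PFOA titled 0.1, and from medium 0.27 and 0.39. Of the 36 measured on all 8 arrays, methanol was the lowest array in 35. A feature chosen for a low methanol level tends to show this by the choice itself, so these values are a description. A difference made by PFOA and one particular to the methanol array cannot be told apart for them.

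Ranked by the smaller of its differences on the PFOA arrays, the first of the named contigs was Contig-c2653-1 (probe AM-4160). It read 6.17% and 6.54% at the spots on methanol, 30.9% and 32.2% on PFOA titled 1, 28.0% and 31.9% on PFOA titled 0.1, and 28.1% and 34.4% on medium. Both PFOA arrays were thus at the level of medium, 4.96-fold and 4.71-fold above methanol. On the other slide it read 33.7% with ethanol and 19.2%, 9.75% and 21.7% on the BPA arrays titled 0.1, 1 and 100. The limma estimate was 2.27 ± 0.42 (SE, log2) with an adjusted p of 0.621.

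Contig-c15002-1 (AM-17971) read 1.96% and 2.18% on methanol, 12.7% and 15.1% on PFOA titled 1, 6.74% and 10.6% on PFOA titled 0.1, and 15.4% and 19.7% on medium. PFOA was 6.70-fold and 4.09-fold above methanol, yet both PFOA arrays read below medium. Contig-c5284-3 (AM-7747) showed the same order, with 3.15% on methanol, 10.8% and 11.1% on PFOA titled 1 and titled 0.1, and 16.1% on medium. Set against medium in place of methanol, the mean log2 difference of both PFOA arrays changed sign in all 3 of these contigs, to -0.02 for Contig-c2653-1, -0.69 for Contig-c15002-1 and -0.55 for Contig-c5284-3.

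Of the 10 named contigs, 6 others read higher on both PFOA arrays than on methanol and medium, and the brightest of them were Contig-c150-1 and Contig-c9772-1. Contig-c150-1 (AM-252) read 13.6% and 14.2% at the spots on methanol and 28.4% and 29.5% on medium, against 47.3% and 49.97% on PFOA titled 1 and 32.5% and 45.3% on PFOA titled 0.1. No PFOA spot overlapped either reference. Ethanol, on the other slide, read 42.2% and the BPA array titled 0.1 46.1%, both within the range of the PFOA arrays. Contig-c9772-1 (AM-12504) read 17.1% on methanol, 27.4% on medium, 45.4% on PFOA titled 1 and 59.9% on PFOA titled 0.1, which is 0.72 and 1.13 above medium (log2). The ethanol array and the BPA array titled 0.1, on the other slide, read 40.3% and 38.5% for this contig, between medium and PFOA, and the BPA array titled 100 read 52.2%, between the PFOA arrays. The other 5 contigs named by the same rule were dim, at 1.64% to 3.90% on methanol, and stood 2.19-fold to 2.71-fold above it on PFOA titled 1. Contig-c8121-1 (AM-10817) read 1.34% and 2.24% at the spots on methanol and 2.56% and 2.84% on medium, against 3.66% to 4.75% over the spots of both PFOA arrays. Contig-c18695-1 (AM-21616) read 3.88% and 3.92% on methanol and 7.44% and 7.71% on medium, against 8.81% to 11.3% over the PFOA spots. In both, every PFOA spot was above every spot of methanol and medium. Ethanol, on the other slide, read 4.77% for Contig-c8121-1, above the PFOA spots. For Contig-c18695-1 it read 9.11%, within their range. Contig-c3302-1 and Contig-c17294-1 were above medium by 0.54 and 0.24 on PFOA titled 1 and by 0.54 and 0.35 on PFOA titled 0.1 (log2), with PFOA spots that overlapped medium. Contig-c11383-1 differed from medium by 0.21 on PFOA titled 1 and by -0.10 on PFOA titled 0.1. Over all 38 features, both PFOA arrays read above medium in 28.

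The 10 features at least 2-fold lower than methanol on both PFOA arrays showed the mirror image. Methanol read above medium in 9 of 10, by at least 2-fold in 6, and was the highest of the 8 arrays in 8. Their median log2 difference was -1.44 and -1.38 from methanol and -0.53 and -0.41 from medium.

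Of these, 4 contigs met the naming rule, and in 3 of them the methanol spots lay far apart. Contig-c1337-1 (AM-1940), which shared the smallest adjusted p of 0.095 with limma (log2 difference -2.48 ± 0.30, SE), read 5.41% and 64.0% at its methanol spots. Its spots read 3.32% and 3.37% on PFOA titled 1, 2.94% and 3.78% on PFOA titled 0.1, and 4.83% and 4.90% on medium. The dimmer methanol spot was less than 2-fold from every PFOA spot. The methanol spots of Contig-c18447-1 (AM-21376) read 10.2% and 39.97%, and here too the dimmer was less than 2-fold from every PFOA spot. Those of Contig-c15343-1 (AM-18305) read 6.50% and 16.1%, and the dimmer was still above every PFOA spot (2.90% to 4.45%). The other feature with an adjusted p of 0.095, a single-read feature (AM-32732) with 1 spot, read 34.0% on methanol and 4.69% to 10.1% on all 7 other arrays, so methanol alone stood apart.

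Contig-c5207-1 (AM-7654) was the exception, with close spots on every array of the slide. It read 74.6% and 78.6% on methanol, 53.9% and 54.1% on medium, 31.2% and 31.4% on PFOA titled 1, and 25.9% and 28.2% on PFOA titled 0.1. Both PFOA arrays lay below both unexposed arrays of the slide at every spot, at 0.409 and 0.353 of methanol and 0.580 and 0.501 of medium. On the other slide, ethanol read 34.9% and the BPA arrays 42.2% to 62.1%, so the lowest 2 of the 8 arrays were the PFOA arrays. The limma estimate was -1.40 ± 0.30 (SE, log2) with an adjusted p of 0.904.

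**Figure D5:**
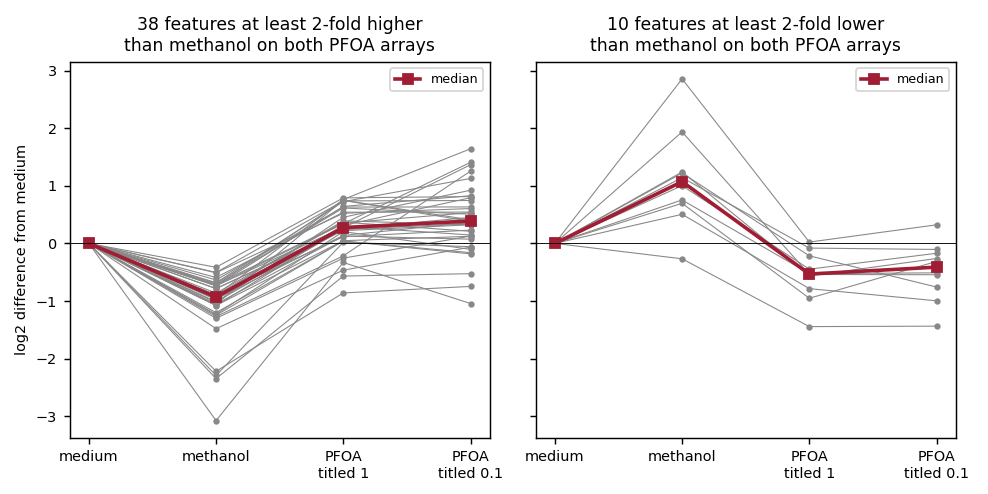
Log2 difference from medium (y axis) on each array of the slide (x axis), with a grey line for each of the 48 features at least 2-fold from methanol on both PFOA arrays and a red line for the median. The 38 higher features have methanol below medium in every case, with PFOA near medium in most.

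Among features with at least 2 spots, those with every PFOA spot at least 2-fold from every methanol spot on both PFOA arrays numbered 7. The 6 higher were Contig-c2653-1, Contig-c15002-1, Contig-c5284-3, Contig-c150-1, Contig-c9772-1 and Contig-c18695-1, and the 1 lower was Contig-c5207-1.

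Against medium, 101 features (0.609%) were at least 2-fold apart on PFOA titled 1, 8 higher (0.0483%) and 93 lower (0.561%). On PFOA titled 0.1 there were 481 (2.9%), 200 higher (1.21%) and 281 lower (1.69%). In the same direction on both, the count was 15 (0.0905%), 1 higher (0.00603%) and 14 lower (0.0844%). Methanol itself was at least 2-fold from medium in 235 features (1.42%), 8 higher (0.0483%) and 227 lower (1.37%). The count for methanol against medium was thus larger than that for PFOA titled 1 against either of them.

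A single feature (0.00603%) was at least 2-fold from both methanol and medium on both PFOA arrays. This single-read feature (AM-29481, named here after its values were seen) has 1 spot, and read 13.1% on methanol, 15.7% on medium, 5.77% on PFOA titled 1 and 5.80% on PFOA titled 0.1. PFOA was 2.26-fold and 2.25-fold below methanol and 2.72-fold and 2.71-fold below medium. On the other slide it read 14.6% with ethanol and 15.4%, 15.96% and 9.06% on the BPA arrays. The PFOA arrays were the lowest of the 8, and the BPA array titled 100 came next. No feature with 2 or more spots met this rule.

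In pairs of comparisons without an array in common, the PFOA arrays were set against different references. Across 16579 features, the log2 differences of PFOA titled 1 from medium and of PFOA titled 0.1 from methanol had a Pearson r of -0.03, and the opposite assignment of the references gave 0.19. The arrays share a slide, so features are not independent points. In the first pair no feature was at least 2-fold higher in both, and 2 were lower in both (2.15% of 93 and 0.658% of 304). In the other pair 6 were higher in both (8.45% of 71 and 3% of 200) and 3 lower (7.5% of 40 and 1.07% of 281).

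Features well above background on only one side add a few bounds, each computed against the dimmest signal well above background on the array. Contig-c9174-1 (AM-11885) was not well above background on methanol, with a signal of 2.03, and had signals of 53.9 on medium, 49.0 on PFOA titled 1 and 23.7 on PFOA titled 0.1. It was at least 6.71-fold and 5.34-fold higher on the PFOA arrays than on methanol, and methanol was the only 1 of the 8 arrays on which it was not well above background. Out of the array's 24418 probes, of which only those with at least 2 spots could count, 126 were above background on methanol but on neither PFOA array. The other way there were 5. Detection also differed over all probes, with 74.4% well above background on methanol, 71.7% on PFOA titled 1 and 69.6% on PFOA titled 0.1. The part of this in the 126 against 5 was not tested. Of the 126, Contig-c2493-1 (AM-3937) was at least 2.52-fold and 2.88-fold lower on the PFOA arrays. Contig-c22446-1 (AM-25295), whose methanol spots read 2.30% and 2.89%, was at least 2.07-fold and 2.37-fold lower. The bound for Contig-c5461-1 (AM-7954), at least 2.35-fold and 2.69-fold lower, rests on 1 bright methanol spot, since its methanol spots read 6.05% and 1.42% and its medium spots 0.994% and 1.43%.

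The PFOA arrays differed from each other in more features than PFOA titled 1 differed from methanol. At least 2-fold apart were 581 features (3.5%), 360 higher (2.17%) and 221 lower (1.33%) on PFOA titled 0.1. Among those also measured on medium, PFOA titled 1 was within 2-fold of both methanol and medium in 329 of 359 higher features (91.6%). Of the lower ones this held in 212 of 220 (96.4%). Over all features, PFOA titled 1 was at least 2-fold from methanol in only 0.675% and from medium in 0.609%. PFOA titled 0.1 was the highest of the slide's 4 arrays in 350 and the lowest in 220, which the choice of these features favours. It was at least 2-fold beyond both methanol and medium in 100 of the higher features (27.9%) and 91 of the lower ones (41.4%). The choice of these features favours these shares too, so they are a description. Over all features PFOA titled 0.1 was at least 2-fold from methanol in 5.28% and from medium in 2.9%. Those 2 shares count either direction and 1 reference each, so they are not a like measure.

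Contig-c6885-1 (AM-9528) ranked first by the size of the uncorrected difference. It read 26.5% and 27.4% on PFOA titled 0.1 and 6.10% and 6.76% on PFOA titled 1, a 4.19-fold difference, with 8.37% on methanol and 11.6% on medium. Contig-c2893-1 (AM-4998), a brighter feature, read 162% and 186% on PFOA titled 0.1, 43.6% and 48.8% on PFOA titled 1, 96.2% on methanol and 89.6% on medium. The PFOA arrays here lay on opposite sides of methanol and medium. Contig-c12377-1 (AM-15365) read 10.02% on PFOA titled 0.1 and 10.6% on medium, against 2.54% on PFOA titled 1 and 4.76% on methanol, so here the low arrays of the slide were PFOA titled 1 and methanol. On the other slide it read 2.91% with ethanol and 12.4%, 7.19% and 3.78% on the BPA arrays titled 0.1, 1 and 100.

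In the other direction, Contig-c2270-1 (AM-3611) read 41.0% and 55.0% on PFOA titled 0.1, 146% and 171% on PFOA titled 1, 81.1% on methanol and 139% on medium, a 3.33-fold difference. On the other slide it read 120% with ethanol and 90.4%, 85.9% and 58.1% on the BPA arrays titled 0.1, 1 and 100. Contig-c7032-1 (AM-9681) read 2.85% on PFOA titled 0.1 and between 7.63% and 8.10% on the other 3 arrays of the slide. Its levels on the other slide were 7.13% to 8.92%. After each array was corrected for position, the difference was 2.65-fold in place of 3.33-fold for Contig-c2270-1 and 1.93-fold in place of 2.74-fold for Contig-c7032-1. Among the higher contigs it was 3.75-fold in place of 4.19-fold for Contig-c6885-1, 2.78-fold in place of 3.76-fold for Contig-c2893-1 and 3.58-fold in place of 3.95-fold for Contig-c12377-1. It was larger for Contig-c5604-1 (AM-8117, 4.67-fold in place of 3.92-fold) and Contig-c17467-1 (AM-20397, 4.01-fold in place of 3.71-fold), so the order of the named contigs depends on this correction.

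Probes with 6 or more spots gave the closest repeat measurement. Of 29 such probes, 27 were measured. Their log2 difference from methanol ran from -0.43 to 0.26 on PFOA titled 1 (median standard error over spots 0.05) and from -0.86 to 1.12 on PFOA titled 0.1 (median standard error 0.12). The 1 probe past 2-fold, AM-233 (Contig-c134-1), differed by 1.12 ± 0.15 on PFOA titled 0.1 and by -0.05 ± 0.05 on PFOA titled 1 (SE over spots).

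How the signal was corrected and filtered changed the balance of directions. With the normexp background correction, PFOA titled 1 had 17 features higher and 17 lower than methanol, PFOA titled 0.1 had 209 higher and 298 lower, 8 were higher and 5 lower on both, and PFOA titled 0.1 was higher than PFOA titled 1 in 41 and lower in 230. With this correction the median of all features on PFOA titled 0.1 moved from 0.02 to 0.24 (log2). The excess of higher over lower features on PFOA titled 0.1 was thus reversed by this correction. A correction for position on the array, added after the data were seen, moved it the other way, to 562 higher and 158 lower against methanol and 435 higher and 83 lower against PFOA titled 1. After cyclic loess the split was 257 higher and 269 lower between the PFOA arrays and 96 higher and 27 lower for PFOA titled 1 against methanol. After quantile normalization it was 258 higher and 266 lower between the PFOA arrays and 76 higher and 25 lower for PFOA titled 1 against methanol. With no filter on dim probes (24418 features in place of 16599), PFOA titled 1 had 441 features higher and 515 lower than methanol, the opposite balance. PFOA titled 0.1 had 2423 higher and 761 lower.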

How the data were processed

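RNA was labelled with Cy3 and hybridised to 1-colour Agilent arrays, per the labels' protocols. Per the file headers, Agilent Feature Extraction 10.7.3.1 read the spots. The processed signal is deposited as an intensity in linear units, and the flags for background and outliers are deposited beside it. The authors' deposited value table holds the same intensity multiplied by 1000000, with medians divided by 1000000 of 95.8 for medium, 104 for methanol, 96.05 for PFOA titled 1 and 60.45 for PFOA titled 0.1, and with log2 ratios to the scanner value of 19.92 to 19.94.

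Control and flagged spots were left out, log2 was taken, the 75th percentile of each array was subtracted, and each probe's spots were averaged. Features needed every spot well above background on methanol and both PFOA arrays. With limma 3.58.1 in R 4.3.3, all 8 arrays were fitted in 5 classes (3 residual degrees of freedom) with Benjamini-Hochberg adjustment. The residual comes from the PFOA and BPA classes, whose arrays differ in titled dose. Methanol, with 1 array, was assumed to vary like the other classes. The script was tested on simulated data. Normexp (offset 50) used the median signal.

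Named were every gene probe, and features with at least 2 spots per array, at least 2-fold apart, with no overlap of spots, ranked by the smaller difference, up to 10 per direction for both PFOA arrays against methanol and 5 between the PFOA arrays. Features not well above background on one side were ranked by their bound, up to 3 per direction. Of the 13 gene names, 11 were found in the reference gene table, as symbols or known aliases. Members and gene lists were chosen with earlier results of these data known. Of 17 lists with 234 symbols, 13 lists had no member named on the array.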

Additional observations from a re-analysis of the deposited data

How the results depend on the processing

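No paired analysis was possible because the labels give no replicate numbers. The count of 0 features past limma's test was the same under most alternatives, and the smallest adjusted p over 16 alternatives ran from 0.0343 to 0.451. With median scaling, 2 features passed (AM-1940 and AM-32732, both lower), and after position correction 1 did (AM-1940, adjusted p 0.0417). Leaving out either PFOA array gave 0. The counts of features 2-fold apart depended on the background correction, the filters, the rules for spots and the threshold. In the order PFOA titled 1 against methanol, PFOA titled 0.1 against methanol, both against methanol, and between the PFOA arrays, normexp gave 34, 507, 13 and 271, no filter on dim probes 956, 3184, 374 and 2280, a minimum of 2 spots 56, 575, 24 and 365, and a 3-fold threshold 13, 54, 6 and 31. With every spot 2-fold apart the last 3 were 499, 31 and 347, and with that and a minimum of 2 spots, chosen after seeing the data, the 4 counts were 19, 198, 7 and 131. These counts have different totals: 24418 features with no filter, 13381 with a minimum of 2 spots and 16599 under the other settings. With medium as the control, PFOA titled 0.1 differed in 485 features and both arrays in 16, over the 16611 features measured on medium and both PFOA arrays (481 and 15 where methanol also had to be measured). The count of features apart from both methanol and medium was 2 after quantile normalization, 2 after position correction (also chosen after seeing the data), 78 with no filter, and 0 with a minimum of 2 spots, with every spot 2-fold apart as well, or at 3-fold. With medium as the control, AM-4160 reversed to -0.019, AM-17971 to -0.69 and AM-7747 to -0.55. The cause was not tested. Array number, signal over background and the spot spread of PFOA titled 0.1 limit the precision.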
